A study of Homo sapiens with 38 samples.

Results

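The genes described here code for proteins of the nucleolus that make ribosomes: factors that transcribe, modify, cut and fold ribosomal RNA and assemble it with ribosomal proteins. They were chosen by symbol from a fixed list, and all 33 listed genes were found among the 43412 gene rows of the deposited table and passed the filter on low counts. By role they fall into 4 nucleolar scaffold and chaperone proteins, 3 core proteins of the box C/D snoRNPs and 4 of the box H/ACA snoRNPs. The others are 10 small subunit assembly factors, 9 large subunit assembly factors and 3 genes of RNA polymerase I transcription. Levels were measured by total RNA sequencing in H9, an established line of human embryonic stem cells, while WNT signalling was switched on in 3 ways. In the CHIR arm H9 cells received 10 µM CHIR99021, an inhibitor of the kinase GSK3, for 8, 16, 24, 48 or 72 h. The Wnt3a arm used 240 ng/ml of recombinant Wnt3a protein for 8, 24, 48, 72, 96 or 120 h on the same cells. For the bcat arm a derived H9 line with a stably integrated, doxycycline-regulated deltaN90 mutant of beta-catenin, which escapes destruction, received 1 µg/ml doxycycline for 8, 16, 24, 48 or 72 h. Separate 0 h cultures belong to each arm, grown in mTeSR1 and not treated, and for the bcat arm these carried the uninduced construct. Every treated culture of all 3 arms had also been moved from mTeSR1 to RPMI1640 with B27 without vitamin A when treatment began, and no culture received that medium alone. Any change from 0 h joins the agent, the medium and time in dense culture, and these cannot be told apart. The labels name the bcat cells only as an H9 line with the integration, so how many clones it holds is not known here.

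A ribosome begins in the nucleolus, where RNA polymerase I copies the ribosomal DNA into a long precursor RNA. Small nucleolar RNA-protein particles (snoRNPs) guide methylation and pseudouridylation of that RNA. A large processome on its leading end folds and cuts the part that becomes the small subunit, while other factors build the large subunit. Growing cells spend much of their energy on this pathway, pluripotent cells have prominent nucleoli, and the MYC transcription factors are known activators of many of its genes.

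The 19 groups held 2 libraries each, which the labels call biological replicates. The columns of both Wnt3a 72 h libraries were identical and were used as 1 library, so that group had n = 1, every other group n = 2, and 37 libraries were compared. Levels are given as CPM, counts scaled to a common library total, always in the order replicate 1 and replicate 2. Changes are log2 values fitted with edgeR's quasi-likelihood test over 24304 genes, with Benjamini-Hochberg adjustment per comparison, and a gene was called when its adjusted p was below 0.05. These p-values measure the spread between the libraries at hand. Library totals spanned 2.45 to 65.7 M estimated counts, and both ends are Wnt3a 0 h libraries (replicates 1 and 2). The lowest count of any of the 33 genes in any library was 24 (GAR1). Cytosolic ribosomal RNA left in the libraries took 34.1% of the counts of bcat 0 h replicate 1, 60.4% of bcat 24 h replicate 1 and 60.3% of bcat 48 h replicate 2, against a median of 5.13%. Apart from 0 h replicate 2 (5.78%), the other bcat libraries held 14.4% (24 h replicate 2) to 27.2% (72 h replicate 2). The Wnt3a libraries held 0.419% to 4.94%, and CHIR 0 h replicate 1 held 18.8%. The bcat libraries at 34.1%, 60.4% and 60.3% and Wnt3a 0 h replicate 1 are called the 4 libraries in doubt below. The main counts are also given without them where they moved. Leaving them out does not remove the higher ribosomal RNA of the bcat arm. CPM are shares of a library, so less RNA of a gene per cell and fewer cells that express it cannot be told apart, nor can a change in the total RNA of a cell be seen. Of the 229 called changes of the 33 genes from 0 h, 117 (51.1%) were called under every alternative and with each library left out, and 0 changed direction. The 18 calls at Wnt3a 72 h, of which 13 were kept, met only 11 refits against 13 elsewhere. The single library of that group could not be left out. Where a call given in the paragraphs on single genes was lost with 1 library left out, that library (r1 or r2 for replicate 1 or 2) and the adjusted p without it follow in parentheses, with the number of other processing settings under which it was lost.

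The genes differed widely in level. Per kilobase of the longest annotated transcript, NPM1, which codes for the histone and ribosomal protein chaperone nucleophosmin, stood at a mean of 1134 CPM per kb in the CHIR 0 h cultures. NCL (nucleolin, an abundant RNA-binding protein of the nucleolus) stood at 162 CPM per kb, FBL (fibrillarin, the methyltransferase of the box C/D particles) at 152 and NOP10 at 113 on the same scale. POLR1A, the largest subunit of RNA polymerase I, was the lowest at 5.48 CPM per kb. Of the 33 genes 6 (18.2%) host small nucleolar RNA genes in their annotated span, 23 such RNAs in all, against 1.59% of the 15865 coding genes tested. They were GNL3 with 6, NOP56 with 5, NOP58 with 4, NCL and WDR43 with 3 each and DKC1 with 2.

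Since many of these genes moved together, their promoters were read from RefSeq (GRCh38.p14, 250 bases before to 50 after each start). Of the 33 genes 28 had a window, and NOLC1, RRS1, BOP1, NOP58 and RRP12 had none. The E-box CACGTG, the letters to which MYC and its relatives bind, is its own reverse complement and was searched as such. It stood in the window of 13 of the 28 genes (46.4%), against 8.77% of all 27305 genes with a window and 10.9% of the coding genes. Counted by window, it stood in 39.4% of the 33 windows of the 28 genes, against 7.26% of all 35116 windows and 8.34% of those of coding genes. The sequences below, upstream of the start on the coding strand, are shown for UTP4 and UTP20, the small subunit factors with the largest rise and the largest fall, for NOP10, whose level moved the least of all 33 genes, and for NCL and NPM3, which moved in opposite directions under CHIR. Capitals mark CACGTG.
UTP4, chr16:69132529-69132648, plus strand: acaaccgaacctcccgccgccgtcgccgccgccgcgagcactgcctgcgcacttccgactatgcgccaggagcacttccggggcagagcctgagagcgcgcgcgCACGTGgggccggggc
UTP20, chr12:101279985-101280104, plus strand: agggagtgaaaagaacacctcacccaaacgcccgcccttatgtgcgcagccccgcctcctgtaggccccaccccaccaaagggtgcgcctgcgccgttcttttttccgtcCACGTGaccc
NOP10, chr15:34343137-34343386, minus strand: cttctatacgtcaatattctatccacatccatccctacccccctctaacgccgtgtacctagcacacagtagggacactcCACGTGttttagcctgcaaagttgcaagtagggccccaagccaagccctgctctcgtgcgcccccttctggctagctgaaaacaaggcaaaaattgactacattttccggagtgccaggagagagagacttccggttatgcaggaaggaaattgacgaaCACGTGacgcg
NCL, chr2:231464485-231464604, minus strand: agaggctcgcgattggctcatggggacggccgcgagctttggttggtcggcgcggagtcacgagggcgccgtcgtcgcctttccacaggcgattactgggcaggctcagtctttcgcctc
NPM3, chr10:101783447-101783566, minus strand: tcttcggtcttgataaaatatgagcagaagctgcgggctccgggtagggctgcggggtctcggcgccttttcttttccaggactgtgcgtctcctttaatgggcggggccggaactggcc
Counted from the start site, the box began at position -16 in UTP4 and -10 in UTP20, and NOP10 held boxes at -170 and -11. The windows of NCL and NPM3 held none. NOP10 is the only one of the 28 genes with 2 boxes. A match is only a run of letters in this window, binding was not measured, and the relation of the boxes to the changes was not tested.

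Over time the genes stood high at 8 h in the CHIR and bcat arms, and lower at later times in the CHIR and Wnt3a arms. Their summed level was 5065 and 5265 CPM in the CHIR 0 h libraries, 5205 and 5429.5 at 8 h and 4073 and 3949 at 72 h. In the Wnt3a arm it was 4773 and 5702 CPM at 0 h, 5767 and 5726 at 8 h, 2522 and 2483 at 96 h and 3634 and 3707 at 120 h. In the bcat arm it was 4068 and 4772 CPM at 0 h, 5029.6 and 5317 at 8 h and 3759.6 and 3275 at 72 h. NPM1 and NCL take a large part of these sums, so each gene was also set against its own mean over the 37 libraries. On that scale the median of the 33 log2 levels in the CHIR arm was 0.29 and 0.31 at 0 h and 0.48 and 0.63 at 8 h. It was 0.30 and 0.59 at 0 h, 0.55 and 0.57 at 8 h and -0.66 and -0.74 at 96 h of Wnt3a, so the 8 h libraries lay between the 0 h libraries. For bcat it was -0.48 and -0.36 uninduced and 0.18 and 0.31 at 8 h of doxycycline. The uninduced bcat libraries thus started lower than those of both other arms, and at 8 h the bcat libraries had reached about the level of the CHIR 0 h libraries. The 2 Wnt3a 0 h libraries lay further apart from each other than the untreated pairs of the other arms.

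**Figure D1:**
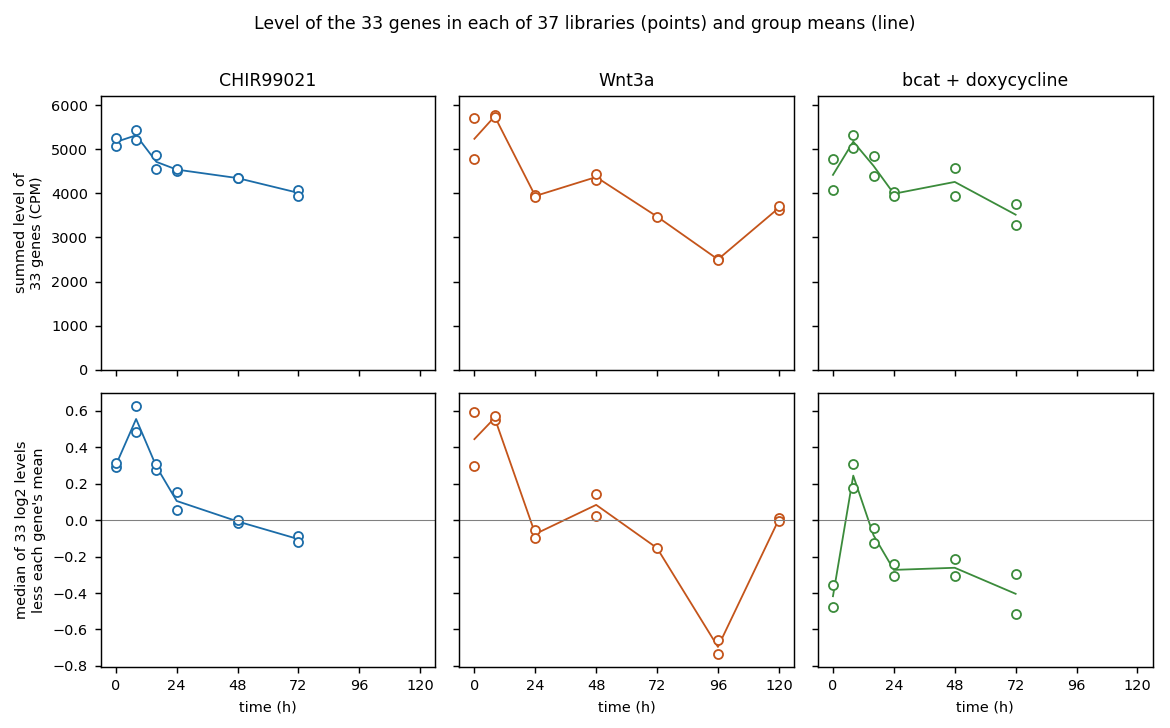
Summed level of the 33 genes (top, CPM) and the median over the 33 genes of the log2 level less the gene's own mean over all libraries (bottom), against time in hours, for the CHIR99021, Wnt3a and bcat arms. Points are the 37 libraries and lines join group means. In the bottom row the CHIR and bcat libraries stand highest at 8 h, the Wnt3a 8 h libraries lie between the Wnt3a 0 h libraries, and Wnt3a stands lowest at 96 h, at -0.66 and -0.74.

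At 8 h the clearest rise was in the bcat arm. Of the 33 genes 23 rose and 0 fell at 8 h of doxycycline, while 10.7% of all genes tested rose and 8.01% fell, and the median change was 0.72 against 0.05 over all genes. Under CHIR99021 13 rose and 2 fell (all genes: 9.2% and 11.7%), with a median of 0.29 against -0.01. Under Wnt3a 2 rose and 0 fell (all genes: 2.28% and 1.18%), and the 2 were UBTF and NOP10. Of the 13 genes that rose under CHIR99021, 12 (92.3%) were also among the 23 that rose in the bcat arm, of which they are 52.2%. Since 23 of all 33 genes rose there, most of any 13 of the genes would be shared. Whether the overlap exceeds that share was not tested. The comparisons have no library in common, but the change of medium is common to both arms. The 12 were DKC1, NOP56, NOP58, UTP15, RRP9, RRP12, NOP2, RRS1, NIP7, MRTO4, POLR1A and UBTF, and the 13th gene under CHIR99021 was BYSL. The genes that fell at 8 h of CHIR99021 were NCL (-0.49) and FBL (-0.38). With 1 library left out, the bcat count stayed between 21 and 23, and the CHIR count was between 7 and 10, the lowest on leaving out CHIR 0 h r1, CHIR 0 h r2 or CHIR 8 h r2. Neither Wnt3a call held on leaving out Wnt3a 0 h r1, Wnt3a 8 h r1 or Wnt3a 8 h r2, where the count was 0, and the count was also 0 without the 4 libraries in doubt and with scaling over protein-coding genes.

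Later the arms parted. In the CHIR arm 4 genes rose and 1 fell at 16 h (all genes: 6.56% and 9.33%) and 2 rose and 4 fell at 24 h (5.91% and 8.61%). After that 1 rose and 13 fell at 48 h (15.7% and 18.1%), and 1 rose and 16 fell at 72 h (11.5% and 13.4%). The median change moved from 0.02 at 16 h to -0.18, -0.28 and -0.31 at 24, 48 and 72 h, with the median of all genes between -0.02 and 0.02 at these times. The fall by 72 h was led by NCL (-1.0), BOP1 (-0.89), NOLC1 (-0.83) and NOP16 (-0.81), and NPM3 was the gene that rose. Between 24 and 48 h 1 rose and 8 fell (all genes: 12.7% and 12.9%), and between 48 and 72 h 1 rose and 2 fell (7.51% and 5.49%). Several of these counts rest on single libraries. At 72 h the 16 falls became 10 without CHIR 0 h r1, 10 without CHIR 0 h r2 and 9 without CHIR 72 h r1, while the median stayed between -0.36 and -0.28. At 24 h the 4 falls became 2 without CHIR 0 h r2, without CHIR 24 h r1 or without CHIR 24 h r2, and at 16 h the 4 rises became 1 without CHIR 0 h r2 and 2 without CHIR 16 h r2. The 8 falls from 24 to 48 h became 5 without CHIR 24 h r2 or without CHIR 48 h r2.

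The deepest fall was in the Wnt3a arm at 96 h, where all 33 genes fell, while 21% of all genes tested and 28.5% of coding genes fell and 18.8% of all genes rose. The median change was -1.09 there, against 0.07 over all genes. Before that, 1 rose and 23 fell at 24 h (all genes: 9.32% and 10.9%), 1 rose and 14 fell at 48 h (7.58% and 8.56%), and 0 rose and 18 fell at 72 h (8.43% and 7.94%), the group with n = 1. The course was not even. From 24 to 48 h 12 genes rose and 2 fell (all genes: 10% and 8.96%), from 48 to 96 h 0 rose and 29 fell (13.7% and 16.6%), and from 96 to 120 h 24 rose and 0 fell (11.8% and 11%). At 120 h 0 rose and 22 fell from 0 h (all genes: 12.2% and 15.6%), and the median was -0.47. The genes that came back most from 96 to 120 h were NOP16 (1.16), UTP20 (1.15), NOP58 (1.09) and RRS1 (1.03).

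The Wnt3a 0 h libraries weigh on these counts. On leaving out Wnt3a 0 h r2, the higher of the pair for most of the genes, 10 genes fell at 24 h, 4 at 48 h and 9 at 120 h, in place of 23, 14 and 22. At 48 h 8 genes fell without Wnt3a 48 h r1. The fall at 96 h depended less on that library: over the 4 fits with 1 library left out, 29 to 33 genes fell, and the median lay between -1.20 and -0.86. The steps from 48 to 96 h and from 96 to 120 h do not use the 0 h libraries, and there 25 to 27 genes fell and 19 to 23 rose with 1 library left out. The 12 rises from 24 to 48 h became 7 without Wnt3a 24 h r1, 5 without Wnt3a 24 h r2 and 6 without Wnt3a 48 h r2. At 96 h long intergenic noncoding RNAs had a median change of 0.65 and coding genes of -0.05, and at 24 h of 0.50 and -0.03. These medians were 0.05 and -0.01 at 48 h, 0.19 and -0.02 at 72 h and 0.30 and -0.07 at 120 h. The make-up of the library thus moved most at 24 and 96 h. The median of the 33 genes was -0.55 at 24 h and -0.60 at 72 h, and the part of the make-up in the falls was not tested. With scaling over protein-coding genes alone the 33 genes all still fell at 96 h, with a median of -1.0. The 3 endoderm markers SOX17, FOXA2 and GATA6, at 0.103 to 0.323 CPM in sum at Wnt3a 0 h, stood at 149 to 221 CPM at 96 h and 139 to 229.6 CPM at 120 h, and the part of such cells in these changes was not tested.

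In the bcat arm fewer genes were called higher after 8 h. At 16 h 11 genes rose and 0 fell (all genes: 6.23% and 4.69%), and at 24 h 2 rose and 2 fell (6.87% and 5.95%). At 48 h 10 rose and 1 fell (11.2% and 10.1%), and at 72 h 2 rose and 7 fell (13.6% and 13.6%). The medians were 0.32, 0.15, 0.16 and 0.03 at those times, against 0.07, 0.09, 0.03 and 0.06 over all genes. MRTO4 was called higher than at 0 h at each of the 5 times (1.13, 0.84, 0.48, 0.62 and 0.63) and UBTF at 8, 16, 24 and 48 h (1.32, 0.49, 0.57 and 0.43). FBL fell at 24, 48 and 72 h (-0.42, -0.36 and -0.36) and NPM1 at 24 and 72 h. MRTO4 lost its call at bcat 24 h (bcat 0 h r2 0.145, bcat 24 h r2 0.259, and under 1 of 9 other settings). UBTF lost its calls at bcat 16 h (bcat 0 h r1 0.111, bcat 0 h r2 0.0509, bcat 16 h r1 0.136, and under 1 of 9 other settings) and at bcat 24 h (bcat 24 h r1 0.0631, and under 1 of 9 other settings). UBTF also lost that at bcat 48 h (bcat 0 h r1 0.0954, bcat 0 h r2 0.0544, bcat 48 h r1 0.165, and under 1 of 9 other settings). FBL lost its calls at bcat 24 h (bcat 0 h r2 0.196, bcat 24 h r1 0.0572, bcat 24 h r2 0.0914, and under 2 of 9 other settings) and at bcat 48 h (bcat 0 h r2 0.266, bcat 48 h r1 0.243, and under 1 of 9 other settings). FBL also lost that at bcat 72 h (bcat 0 h r2 0.223, bcat 72 h r1 0.0518, bcat 72 h r2 0.135). From 24 to 48 h 1 gene rose (NOP14) and 0 fell (all genes: 4.64% and 4.36%), and from 48 to 72 h 0 rose and 5 fell (2.72% and 3.46%). The count at 16 h became 6 without bcat 0 h r1 and 7 without bcat 0 h r2. At 48 h it became 5 without bcat 0 h r1, 5 without bcat 0 h r2 and 2 without bcat 48 h r1, and the 7 falls at 72 h became 2 without bcat 0 h r2 and 2 without bcat 72 h r2. The 2 rises at 24 h became 1 without bcat 24 h r1 or without bcat 24 h r2. The single rise from 24 to 48 h became 0 without bcat 24 h r2 or bcat 48 h r1 and 2 without bcat 48 h r2, and the 5 falls from 48 to 72 h gave 0 without bcat 48 h r1 or without bcat 72 h r2. Without the 4 libraries in doubt 21 genes rose at 8 h, 7 at 16 h, 1 at 24 h and 5 at 48 h.

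**Figure D2:**
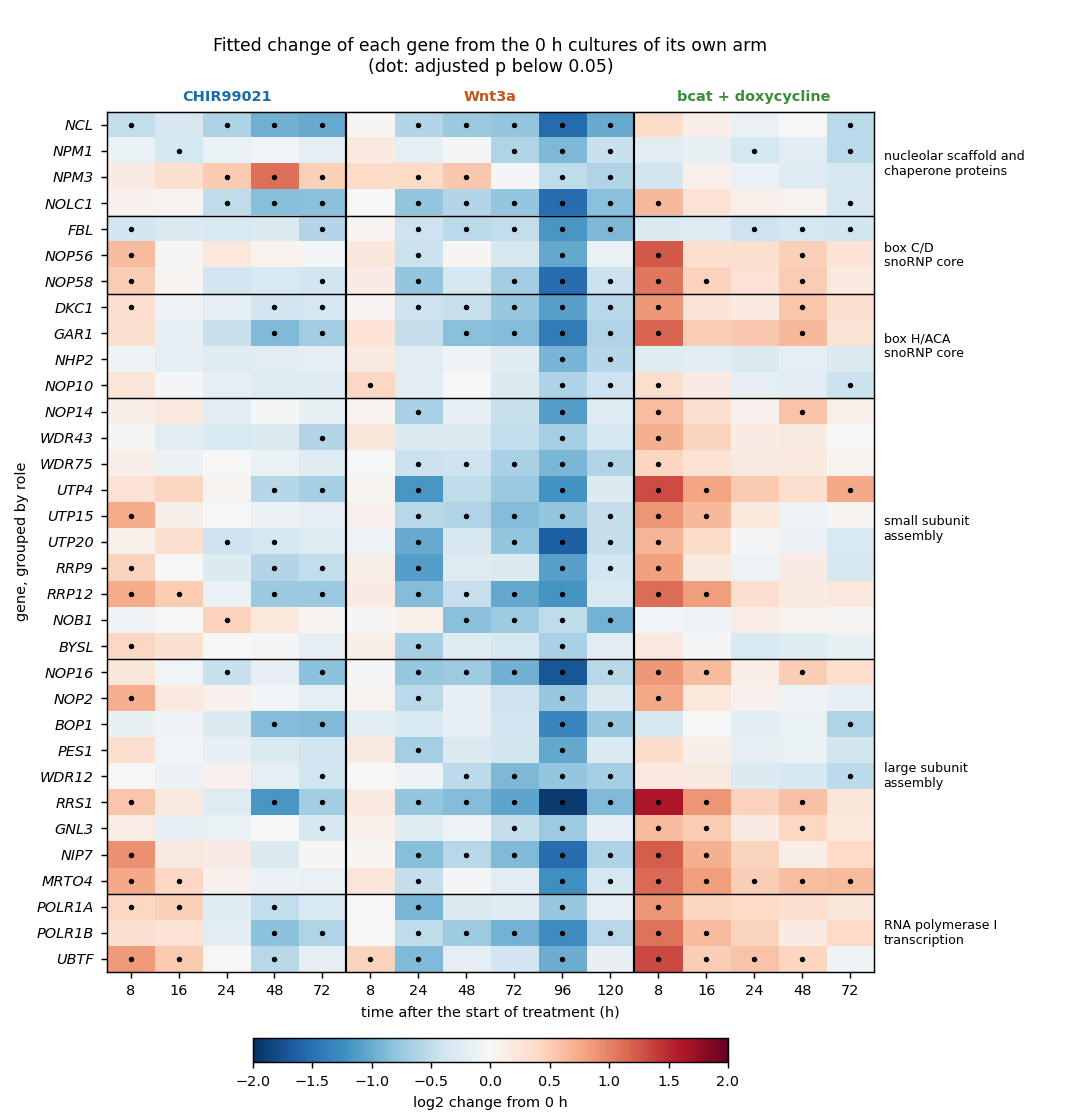
Fitted log2 change of each of the 33 genes (rows, grouped by role) from the 0 h cultures of its own arm at each time in hours (columns), with blue for lower and red for higher and a dot where the adjusted p was below 0.05. The bcat 8 h column holds 27 red cells, 23 of them with dots, and 6 blue cells without, and the Wnt3a 96 h column is blue with 33 dots. At 48 and 72 h of the CHIR arm 4 and 3 cells are red, and NPM3 is the only one of them with a dot.

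The low start of the bcat arm was the largest difference between untreated cultures. Set against the CHIR 0 h cultures, 0 of the 33 genes were higher and 24 lower in the uninduced bcat line (all genes: 6.07% and 9.59%), with a median of -0.60 against -0.09 over all genes. Against the Wnt3a 0 h cultures 2 were higher and 26 lower (all genes: 12% and 12%), with a median of -0.91 against -0.03. Between the untreated CHIR and Wnt3a cultures, which are the same H9 line, 1 was higher and 6 lower under the CHIR label (all genes: 6.75% and 4.12%), with a median of -0.14, so untreated H9 cultures also differed. RRS1, a factor that brings the 5S ribosomal RNA particle to the large subunit, differed most. Its uninduced bcat libraries held 9.70 and 9.31 CPM, the untreated CHIR libraries 27.8 and 28.1 and the untreated Wnt3a libraries 31.4 and 40.8, with no overlap between the bcat libraries and the others. Its log2 difference was -1.56 (SE 0.18, adjusted p = 3.27e-07) against CHIR 0 h and -1.97 (SE 0.19, adjusted p = 4.67e-09) against Wnt3a 0 h. All 9 large subunit factors, 7 of the 10 small subunit factors, 3 of the 4 box H/ACA proteins, 2 of the 3 box C/D proteins, 2 of the 3 polymerase I genes and 1 of the 4 scaffold proteins were lower than at CHIR 0 h. FBL and NPM1 went the other way against Wnt3a 0 h, at 0.64 (adjusted p = 2.41e-04) and 0.46 (adjusted p = 0.00191). With 1 library left out 18 to 21 genes were lower than at CHIR 0 h and 18 to 26 lower than at Wnt3a 0 h, and the 6 genes lower at CHIR 0 h than at Wnt3a 0 h became 10 without Wnt3a 0 h r1. Of bcat 0 h r1 34.1% of the counts were ribosomal RNA. Without the 4 libraries in doubt, that library among them, 20 and 26 genes were lower, with medians of -0.57 and -1.04. The pluripotency markers POU5F1, NANOG, SOX2, LIN28A, DPPA4 and ZFP42 summed to 3664 to 4163 CPM at bcat 0 h, 3953 to 4017 at CHIR 0 h and 3600.3 to 4349 at Wnt3a 0 h. Of 5 genes of cell division, PCNA (-0.84 and -1.14) and MCM2 (-0.62 and -0.91) were lower in the bcat line than at CHIR 0 h and at Wnt3a 0 h. MKI67 and TOP2A were higher than at Wnt3a 0 h (0.65 and 0.61), and CCNB1 was called in neither comparison (-0.17 and 0.06). The part of cell division in the low start was not tested. Since all changes in the bcat arm are taken from these low cultures, its rises and its smaller falls start from another level than those of the other arms. NPM1 lost its call at bcat 0 h over Wnt3a 0 h (bcat 0 h r2 0.0891). MKI67 lost its call at bcat 0 h over Wnt3a 0 h (bcat 0 h r1 0.260, and under 1 of 9 other settings).

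**Figure D3:**
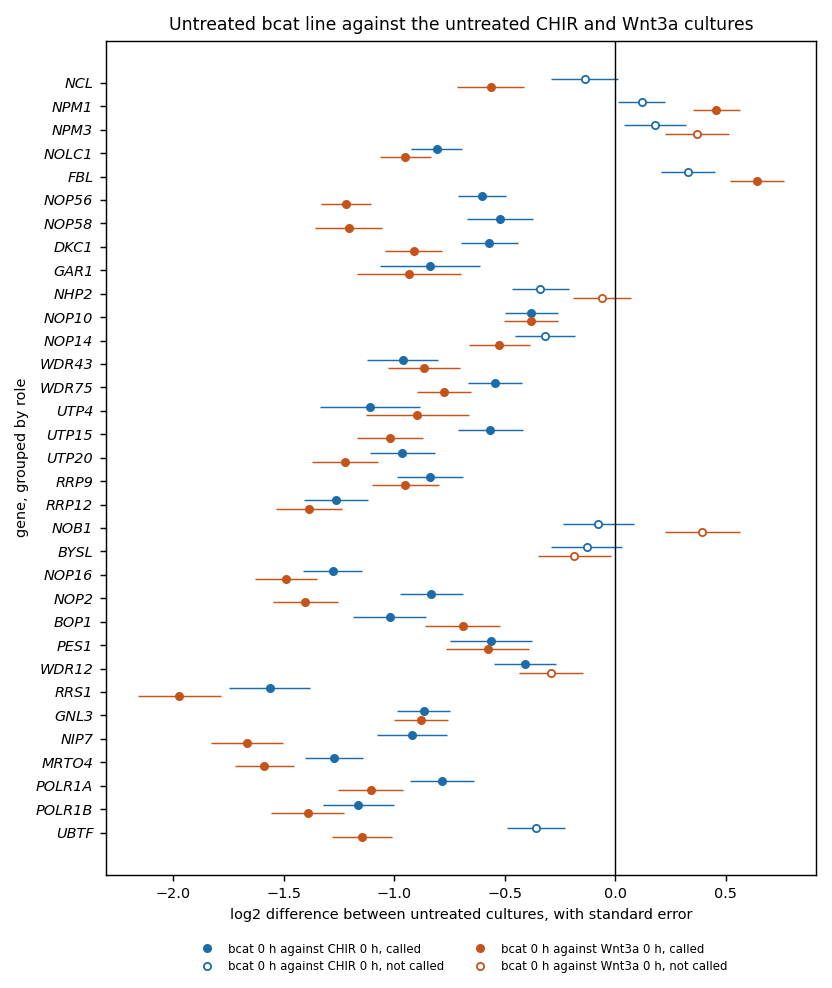
Log2 difference of each of the 33 genes between the uninduced bcat line and the untreated CHIR (blue) or Wnt3a (orange) cultures, with its standard error as a bar and filled points where the adjusted p was below 0.05. Of the 33 points, 24 (against CHIR) and 26 (against Wnt3a) are filled to the left of zero, with RRS1 the farthest at -1.56 and -1.97.

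Among the scaffold and chaperone proteins, NPM3 and NCL moved apart. NPM3, a relative of nucleophosmin that binds it, was at 44.7 and 53.6 CPM at CHIR 0 h, 49.7 and 60.4 at 8 h, 55.7 and 67.5 at 16 h, 66.6 and 74 at 24 h, 109 and 102 at 48 h and 74.8 and 61.7 at 72 h. The 48 h libraries stood highest of all 37, and the 24, 48 and 72 h libraries were all above both 0 h libraries. The changes were 0.52 (SE 0.13, adjusted p = 0.00719) at 24 h, 1.10 (SE 0.13, adjusted p = 8.80e-08) at 48 h and 0.48 (SE 0.13, adjusted p = 0.00757) at 72 h. Under Wnt3a NPM3 was at 37.2 and 47 CPM at 0 h, 57 and 55.2 at 8 h and 54.9 and 58.5 at 24 h. From 48 h on it was at 62.8 and 63.2 at 48 h, 42.2 at 72 h, 32.4 and 28.7 at 96 h and 29.5 and 27.3 at 120 h. It had risen at 24 h (0.39) and 48 h (0.54) and had fallen at 96 h (-0.50) and 120 h (-0.61). With doxycycline NPM3 was at 52.6 and 58.3 CPM at 0 h, 41.6 and 44.7 at 8 h and 63.2 and 56.4 at 16 h. From 24 h on it was at 45.8 and 56.3 at 24 h, 45.7 and 47.9 at 48 h and 44.4 and 45.1 at 72 h, and no change was called. NPM3 lost its calls at CHIR 24 h (CHIR 0 h r1 0.153, CHIR 24 h r2 0.108) and at CHIR 72 h (CHIR 0 h r1 0.147, CHIR 72 h r1 0.189). NPM3 also lost those at Wnt3a 24 h (Wnt3a 0 h r1 0.196, Wnt3a 24 h r1 0.0883, Wnt3a 24 h r2 0.206, and under 3 of 9 other settings), at Wnt3a 48 h (Wnt3a 0 h r1 0.0538, and under 1 of 9 other settings), at Wnt3a 96 h (Wnt3a 0 h r2 0.302) and at Wnt3a 120 h (Wnt3a 0 h r2 0.193).

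Its paralogue NPM1 was at 1910.0 and 2077 CPM at CHIR 0 h, 1844 and 1812 at 8 h, 1501 and 1640.4 at 16 h, 1833 and 1819 at 24 h, 1959 and 1874 at 48 h and 1793 and 1688 at 72 h, and was called lower only at 16 h (-0.34, adjusted p = 0.0245). The Wnt3a libraries of NPM1 stood at 1465 and 1687 CPM at 0 h, 1894 and 1709.5 at 8 h and 1369 and 1404 at 24 h. The later libraries stood at 1575 and 1538 at 48 h, 1039 at 72 h, 867 and 819 at 96 h and 1099 and 1208 at 120 h. The 72, 96 and 120 h libraries were below all earlier ones, and at 96 h the change was -0.90 (SE 0.11, adjusted p = 6.47e-08). The bcat libraries of NPM1 stood at 1951 and 2374 CPM at 0 h, 1819 and 1931 at 8 h and 2033 and 1887 at 16 h. After 16 h it stood at 1701 and 1682 at 24 h, 2019 and 1678 at 48 h and 1595 and 1392 at 72 h, with falls called at 24 h (-0.36) and 72 h (-0.53). The table holds 43 pseudogene rows of NPM1, which together take 0.458% of the counts of NPM1 and those rows. NPM1 lost its calls at CHIR 16 h (CHIR 0 h r2 0.212, CHIR 16 h r1 0.152) and at bcat 24 h (bcat 0 h r2 0.365, bcat 24 h r1 0.0507, bcat 24 h r2 0.114, and under 1 of 9 other settings).

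NCL was at 640.2 and 668 CPM at CHIR 0 h, 417 and 516 at 8 h, 496 and 557 at 16 h, 432 and 422 at 24 h, 315 and 359 at 48 h and 318 and 335 at 72 h, with every treated library below both 0 h libraries. The fall was -0.49 (SE 0.15, adjusted p = 0.0193) at 8 h, when 13 of the other genes rose, and -1.0 (SE 0.15, adjusted p = 6.75e-06) at 72 h. In the Wnt3a arm NCL was at 771 and 984 CPM at 0 h, 843 and 939 at 8 h and 638 and 529 at 24 h. At later times it was at 468 and 582 at 48 h, 506 at 72 h, 285 and 317 at 96 h and 423 and 454 at 120 h, and the change at 96 h was -1.55 (SE 0.15, adjusted p = 3.90e-09). In the bcat arm NCL was at 549 and 639 CPM at 0 h, 750.4 and 785 at 8 h and 738 and 569.9 at 16 h. The libraries from 24 h on held 600.5 and 489 at 24 h, 649 and 542 at 48 h and 460.2 and 357 at 72 h. Both 8 h libraries were above both 0 h libraries there, though the change of 0.37 was not called (adjusted p = 0.0923), and the change at 72 h was -0.54 (adjusted p = 0.00788). The CHIR change less the bcat change at 8 h was -0.86 (SE 0.21, adjusted p = 0.0250). NOLC1, a chaperone that shuttles snoRNPs, fell at every time from 24 h on in the CHIR and Wnt3a arms, by -0.50, -0.85 and -0.83 at 24, 48 and 72 h of CHIR99021 on the log2 scale, and rose at bcat 8 h (0.64). NCL lost its calls at CHIR 8 h (CHIR 0 h r1 0.0607, CHIR 0 h r2 0.110, CHIR 8 h r1 0.266) and at bcat 72 h (bcat 0 h r2 0.120, bcat 72 h r2 0.160). NCL also lost that at CHIR minus bcat at 8 h (CHIR 0 h r1, CHIR 0 h r2, CHIR 8 h r1, bcat 0 h r1, bcat 8 h r1, bcat 8 h r2, 0.0611 to 0.157, and under 1 of 9 other settings).

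The core proteins of the box C/D particles, which methylate ribosomal RNA, did not move as a unit. NOP56 and NOP58 are paired scaffold proteins of the particle. NOP56 was at 172 and 164 CPM at CHIR 0 h, 254 and 268 at 8 h, 163 and 177 at 16 h, 186 and 202 at 24 h, 179 and 173 at 48 h and 162 and 164 at 72 h, and the 8 h libraries stood above all others of the arm (log2 change 0.63, SE 0.11, adjusted p = 4.60e-05). The level of NOP56 in the bcat arm was 108 and 113 CPM at 0 h, 252 and 268 at 8 h and 138 and 138 at 16 h. From 24 h on it was at 136 and 139.5 at 24 h, 165 and 144 at 48 h and 149 and 117 at 72 h, again with the 8 h libraries apart from the rest (log2 change 1.23, SE 0.11, adjusted p = 1.81e-09). With Wnt3a the level of NOP56 was 236 and 277 CPM at 0 h, 311 and 294 at 8 h and 191 and 193 at 24 h. From 48 h on it was at 273 and 256 at 48 h, 206 at 72 h, 116 and 137 at 96 h and 234 and 238 at 120 h, with the 96 h pair lowest (log2 change -1.03, SE 0.11, adjusted p = 7.52e-09). At 120 h NOP56 was close to the lower of the 0 h libraries, and no change from 0 h was called (-0.13, adjusted p = 0.401). No call given here with its value was lost with 1 library left out or under another setting.

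NOP58 was at 73 and 73.7 CPM at CHIR 0 h, 101 and 105 at 8 h, 67.7 and 82.7 at 16 h, 56.9 and 55.4 at 24 h, 62.2 and 56.1 at 48 h and 53.9 and 58.8 at 72 h. Under Wnt3a NOP58 was at 119.7 and 116 CPM at 0 h, 133 and 132 at 8 h and 74.3 and 64.1 at 24 h. The later libraries stood at 92.1 and 92.4 at 48 h, 72.7 at 72 h, 38.8 and 43.6 at 96 h and 85.8 and 90.1 at 120 h, the latter 2 groups not overlapping (log2 change -1.52, SE 0.15, adjusted p = 1.61e-09 at 96 h, and 1.09 from 96 to 120 h, adjusted p = 2.46e-06). With doxycycline NOP58 was at 39.4 and 60.02 CPM at 0 h, 103 and 109 at 8 h and 78.8 and 61.5 at 16 h. After 16 h it stood at 59.5 and 64.5 at 24 h, 80.1 and 63.6 at 48 h and 63.4 and 52.9 at 72 h, where the 0 h pair was wide and the 8 h pair stood above it (log2 change 1.05, SE 0.15, adjusted p = 6.18e-06). FBL, the enzyme of the same particle, was at 183 and 169.5 CPM at CHIR 0 h and 133 and 138 at 8 h, so that it fell (-0.38, adjusted p = 0.0219) while its partners NOP56 (0.63) and NOP58 (0.49) rose. At bcat 8 h FBL stood at 181 and 179.9 CPM against 209 and 233 at 0 h (-0.30, adjusted p = 0.0899). NOP56 and NOP58 host snoRNA genes, and how the counting treated strand is not stated in what was used here. FBL lost its call at CHIR 8 h (CHIR 0 h r1 0.163, CHIR 8 h r1 0.145, CHIR 8 h r2 0.0702, and under 1 of 9 other settings). NOP58 lost its call at CHIR 8 h (any 1 of its 4 libraries, 0.050 to 0.0713).

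Of the box H/ACA proteins, which make pseudouridine, GAR1 moved most and NOP10 least. GAR1 was at 12.6 and 12.9 CPM at CHIR 0 h, 14.1 and 17.7 at 8 h, 13.1 and 9.84 at 16 h, 8.36 and 10.1 at 24 h, 7.05 and 6.80 at 48 h and 7.62 and 8.30 at 72 h, with the 48 and 72 h libraries below both 0 h libraries (-0.88, adjusted p = 7.48e-04, at 48 h). The Wnt3a libraries of GAR1 stood at 12 and 14.5 CPM at 0 h, 15.2 and 17.6 at 8 h and 11.4 and 8.23 at 24 h. At later times it was at 7.18 and 8.03 at 48 h, 7.46 at 72 h, 4.79 and 5.58 at 96 h and 7.73 and 10.3 at 120 h (log2 change -1.39, SE 0.21, adjusted p = 3.88e-06 at 96 h). The bcat libraries of GAR1 stood at 7.06 and 7.17 CPM at 0 h, 15.6 and 16.3 at 8 h and 11.8 and 7.81 at 16 h. The libraries from 24 h on held 10.9 and 9.88 at 24 h, 11.2 and 11.1 at 48 h and 8.39 and 8.65 at 72 h, and every treated library was above both 0 h libraries (log2 change 1.16, SE 0.23, adjusted p = 3.93e-04 at 8 h). Its counts were the lowest of the 33 genes. DKC1, the pseudouridine synthase itself, rose at CHIR 8 h (0.33, adjusted p = 0.0480) and at bcat 8 h (0.87, adjusted p = 9.83e-06) and fell at Wnt3a 96 h (-1.09). NHP2 was called only at Wnt3a 96 h (-0.92) and 120 h (-0.58), both times lower. DKC1 lost its call at CHIR 8 h (any 1 of its 4 libraries, 0.0949 to 0.228, and under 1 of 9 other settings). NHP2 lost its call at Wnt3a 120 h (Wnt3a 0 h r2 0.0756).

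NOP10, whose promoter holds 2 E-boxes, was at 61.2 and 64.3 CPM at CHIR 0 h, 72.2 and 76.7 at 8 h, 63.5 and 59.8 at 16 h, 51.3 and 58.6 at 24 h, 54.1 and 51.1 at 48 h and 52.5 and 52.7 at 72 h, and no change was called in that arm. In the Wnt3a arm NOP10 was at 65.7 and 60.9 CPM at 0 h, 86.4 and 80.6 at 8 h and 52.4 and 56.7 at 24 h. From 48 h on it was at 64.3 and 62.7 at 48 h, 51.4 at 72 h, 44.5 and 37.4 at 96 h and 45.1 and 49.7 at 120 h. In the bcat arm NOP10 was at 44.1 and 51.5 CPM at 0 h, 58.7 and 64.9 at 8 h and 54.6 and 53.5 at 16 h. From 24 h on it was at 39.8 and 44.8 at 24 h, 41.7 and 42.1 at 48 h and 38.5 and 32.7 at 72 h. Its 8 h libraries were the highest of each arm, with rises called under Wnt3a (0.41, adjusted p = 0.0417) and in the bcat arm (0.35, adjusted p = 0.0363), and its fall at Wnt3a 96 h, -0.62 (adjusted p = 8.21e-05), was the largest change it showed. NOP10 lost its calls at Wnt3a 8 h (any 1 of its 4 libraries, 0.0593 to 0.335, and under 5 of 9 other settings) and at bcat 8 h (bcat 0 h r1 0.190, bcat 8 h r2 0.203, and under 5 of 9 other settings).

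Of the 10 small subunit factors 8 rose at bcat 8 h (all genes: 10.7%), 4 at CHIR 8 h (9.2%) and 0 at Wnt3a 8 h (2.28%), and the difference between arms was not tested for this group of genes. UTP4, a WD-repeat protein of the complex that first binds the nascent precursor RNA, was at 25.9 and 20.01 CPM at bcat 0 h, 62.3 and 47.4 at 8 h and 33.5 and 44.7 at 16 h. After 16 h it stood at 36.8 and 27.6 at 24 h, 27.5 and 29.8 at 48 h and 39.6 and 35.9 at 72 h. All treated libraries were above both 0 h libraries, with calls at 8 h (log2 change 1.30, SE 0.23, adjusted p = 1.12e-04), 16 h (0.79) and 72 h (0.76, adjusted p = 0.0142). In the CHIR arm it was at 49.4 and 47.4 CPM at 0 h, 53.1 and 65.1 at 8 h, 63.1 and 67.3 at 16 h, 61.3 and 40.04 at 24 h, 33.1 and 31.8 at 48 h and 28.8 and 32.7 at 72 h, with a wide 24 h pair, and fell by 48 h (-0.58, adjusted p = 0.0272). With Wnt3a the level of UTP4 was 39.5 and 43.1 CPM at 0 h, 42 and 45 at 8 h and 18.3 and 18.8 at 24 h. The later libraries stood at 23.8 and 34 at 48 h, 25 at 72 h, 19 and 17.3 at 96 h and 26.9 and 42.3 at 120 h. It was lowest at 24 and 96 h (log2 change -1.17, SE 0.22, adjusted p = 2.40e-04 at 24 h). UTP4 overlaps CHTF8 on the other strand, and their reads could be mixed if strand was not used. This limit holds for 13 of the 33 genes: NHP2, NOP14, UTP4, UTP15, RRP12, NOB1, NOP16, PES1, WDR12, GNL3, NIP7, MRTO4 and UBTF. UTP4 lost its calls at bcat 16 h (bcat 0 h r2 0.30, bcat 16 h r2 0.201) and at bcat 72 h (bcat 0 h r2 0.254, bcat 72 h r1 0.0842). UTP4 also lost that at CHIR 48 h (any 1 of its 4 libraries, 0.0750 to 0.122).

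UTP20, a long scaffold protein of the processome, was at 95.6 and 103 CPM at CHIR 0 h, 110.1 and 103 at 8 h, 124 and 129.9 at 16 h, 76.3 and 73.2 at 24 h, 77.2 and 77.5 at 48 h and 88.6 and 76.2 at 72 h. Under Wnt3a UTP20 was at 108 and 128 CPM at 0 h, 114 and 108 at 8 h and 57.2 and 60.5 at 24 h. At later times it was at 103 and 89 at 48 h, 68.9 at 72 h, 34.4 and 42.5 at 96 h and 97.1 and 73.2 at 120 h, low at 24 h, near the 0 h pair at 48 h and lowest at 96 h. The change was -1.01 at 24 h (adjusted p = 4.20e-06), -0.31 at 48 h (adjusted p = 0.137) and -1.63 at 96 h (SE 0.14, adjusted p = 2.20e-10). The level of UTP20 in the bcat arm was 51.2 and 50.6 CPM at 0 h, 78.6 and 85.2 at 8 h and 70.9 and 60.2 at 16 h. The libraries from 24 h on held 49.4 and 50.1 at 24 h, 53.9 and 38.5 at 48 h and 41.2 and 40.9 at 72 h, with a rise at 8 h (0.69, adjusted p = 0.00102). Its falls at CHIR 24 h (-0.41) and 48 h (-0.36) were also lost with scaling over protein-coding genes (adjusted p = 0.0742 and 0.0524). UTP20 lost its calls at CHIR 24 h (any 1 of its 4 libraries, 0.0889 to 0.233, and under 4 of 9 other settings) and at CHIR 48 h (any 1 of its 4 libraries, 0.0714 to 0.205, and under 3 of 9 other settings).

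RRP12, an export factor, was the small subunit factor with the longest early rise, called at 8 h (0.74) and 16 h (0.51) of CHIR99021 and at 8 h (1.12) and 16 h (0.83) of the bcat arm, and it then fell at CHIR 48 h (-0.75) and 72 h (-0.74). NOB1, the nuclease that makes the mature end of the small subunit RNA in the cytoplasm, moved differently from the rest. It stood at 52.2 and 46 CPM at CHIR 0 h and 64.3 and 70.5 at 24 h (0.46, adjusted p = 0.0397). In the Wnt3a arm it stood at 30.7 and 38.1 CPM at 0 h, 37.2 and 38.8 at 24 h and 14.6 and 24 at 48 h, and fell from 24 to 48 h (-0.93, adjusted p = 1.02e-04) while 12 of the other genes rose. It did not come back by 120 h, when it was at 18.7 and 18.2 CPM (-0.94 from 0 h, adjusted p = 7.01e-05). NOP14, WDR43 and WDR75 each rose at bcat 8 h (0.62, 0.72 and 0.44) and fell at Wnt3a 96 h (-1.10, -0.69 and -0.92), and UTP15 and RRP9 did so too and also rose at CHIR 8 h (0.74 and 0.44). RRP12 lost its call at CHIR 16 h (CHIR 0 h r2 0.0856). NOB1 lost its call at CHIR 24 h (any 1 of its 4 libraries, 0.0725 to 0.286, and under 1 of 9 other settings). WDR75 lost its call at bcat 8 h (bcat 0 h r1 0.0875, bcat 8 h r2 0.0742, and under 1 of 9 other settings). WDR43 lost its call at Wnt3a 96 h (Wnt3a 0 h r2 0.263). RRP9 lost its call at CHIR 8 h (CHIR 0 h r1 0.0677, CHIR 0 h r2 0.106, CHIR 8 h r2 0.150).

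BYSL, a factor of late small subunit assembly, was with NOP10 the gene whose level moved least. It was at 24.2 and 22.9 CPM at CHIR 0 h, 29.3 and 33.7 at 8 h, 29 and 29.2 at 16 h, 22.1 and 24.7 at 24 h, 23 and 23.4 at 48 h and 22.1 and 20.01 at 72 h. The Wnt3a libraries of BYSL stood at 21 and 26.4 CPM at 0 h, 26.1 and 27.7 at 8 h and 14.3 and 16.5 at 24 h. From 48 h on it was at 20.7 and 20.8 at 48 h, 19.1 at 72 h, 15.7 and 15.6 at 96 h and 22.1 and 20.1 at 120 h. With doxycycline BYSL was at 26.5 and 18.1 CPM at 0 h, 26.5 and 22.7 at 8 h and 20.4 and 21.7 at 16 h. From 24 h on it was at 15.7 and 18.9 at 24 h, 16.9 and 19.7 at 48 h and 18.8 and 19.9 at 72 h. BYSL rose at CHIR 8 h (0.42, adjusted p = 0.0363). It fell at Wnt3a 24 h (-0.66) and 96 h (-0.64), and was not called in the bcat arm, where its groups overlapped at 8 h. BYSL lost its calls at CHIR 8 h (any 1 of its 4 libraries, 0.0516 to 0.251, and under 2 of 9 other settings) and at Wnt3a 24 h (Wnt3a 0 h r2 0.217). BYSL also lost that at Wnt3a 96 h (Wnt3a 0 h r2 0.168).

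Among the large subunit factors RRS1 had both the largest rise and the largest fall of all 33 genes. The bcat libraries of RRS1 stood at 9.70 and 9.31 CPM at 0 h, 31.8 and 25.8 at 8 h and 19.5 and 14.9 at 16 h. After 16 h it stood at 13.2 and 12.8 at 24 h, 14 and 14.5 at 48 h and 11.4 and 10.9 at 72 h. It was 3.07-fold higher at 8 h (log2 change 1.62, SE 0.18, adjusted p = 1.58e-07), and every treated library was above both 0 h libraries. In the CHIR arm it was at 27.8 and 28.1 CPM at 0 h, 39.2 and 42.6 at 8 h, 30.5 and 32.6 at 16 h, 21.8 and 24.9 at 24 h, 13.8 and 11.1 at 48 h and 18 and 16.3 at 72 h, high at 8 h (0.55, adjusted p = 0.00755) and lowest at 48 h (log2 change -1.16, SE 0.16, adjusted p = 5.00e-07). In the Wnt3a arm RRS1 was at 31.4 and 40.8 CPM at 0 h, 39.2 and 46.1 at 8 h and 22.2 and 21.4 at 24 h. The later libraries stood at 18.3 and 21.9 at 48 h, 17.8 at 72 h, 8.71 and 10.9 at 96 h and 20.3 and 19.9 at 120 h. The fall at 96 h was 3.78-fold (log2 change -1.92, SE 0.16, adjusted p = 1.25e-10). RRS1 lost its call at CHIR 8 h (CHIR 0 h r1 0.0570, CHIR 0 h r2 0.0545, CHIR 8 h r2 0.0674).

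NIP7 and MRTO4, which act in large subunit assembly, followed the same early course, at 0.92 and 0.76 in the CHIR arm and 1.22 and 1.13 in the bcat arm at 8 h. NIP7 stood at 64 and 62.6 CPM at Wnt3a 0 h, 66.2 and 63.7 at 8 h and 22.3 and 21.8 at 96 h, and at 38.6 and 36.7 CPM at CHIR 0 h and 69.8 and 72.2 at 8 h, so its CHIR 8 h libraries reached about the level at which the Wnt3a arm began. GNL3 (nucleostemin, a GTPase of stem cell nucleoli) rose at bcat 8 h (0.63), 16 h (0.51) and 48 h (0.42) and fell at CHIR 72 h (-0.31) and Wnt3a 96 h (-0.73). PES1, BOP1 and WDR12, which form a complex needed to mature the large subunit RNA, had no call at 8 h in any arm. There the changes of BOP1 were -0.15, -0.21 and -0.33 under CHIR, Wnt3a and bcat (adjusted p = 0.554, 0.651 and 0.194). BOP1 and WDR12 fell at CHIR 72 h (-0.89 and -0.39), at bcat 72 h (-0.61 and -0.52) and at Wnt3a 120 h (-0.76 and -0.66). PES1 was called at Wnt3a 24 h (-0.68) and 96 h (-1.03), where its libraries lay apart, at 66 and 37.2 CPM, and below both 0 h libraries, at 88.3 and 118. NOP16 fell at every time from 24 h on in the Wnt3a arm, most at 96 h (-1.71, adjusted p = 6.04e-12), and NOP2, a methyltransferase, rose at 8 h under CHIR99021 (0.73) and doxycycline (0.76). GNL3 lost its calls at bcat 16 h (bcat 0 h r1 0.109, and under 1 of 9 other settings) and at bcat 48 h (bcat 0 h r1 0.133, bcat 48 h r1 0.221, and under 1 of 9 other settings). GNL3 also lost that at CHIR 72 h (any 1 of its 4 libraries, 0.0839 to 0.226, and under 3 of 9 other settings). WDR12 lost its calls at CHIR 72 h (any 1 of its 4 libraries, 0.0809 to 0.148) and at bcat 72 h (bcat 0 h r1 0.0820, bcat 72 h r1 0.0595). WDR12 also lost that at Wnt3a 120 h (Wnt3a 0 h r2 0.0927). BOP1 lost its calls at bcat 72 h (bcat 0 h r2 0.239, bcat 72 h r2 0.0878) and at Wnt3a 120 h (Wnt3a 0 h r2 0.131). PES1 lost its call at Wnt3a 24 h (Wnt3a 0 h r2 0.268, Wnt3a 24 h r1 0.0888).

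All 3 genes of RNA polymerase I transcription rose at bcat 8 h. UBTF, which binds the ribosomal DNA promoter and keeps the gene body open, was at 51.2 and 56.3 CPM at bcat 0 h, 138 and 131 at 8 h and 79 and 72.2 at 16 h. The libraries from 24 h on held 85.9 and 75.4 at 24 h, 76.3 and 68.7 at 48 h and 49.3 and 52.3 at 72 h (log2 change 1.32, SE 0.13, adjusted p = 1.67e-08 at 8 h). In the CHIR arm it was at 70.4 and 68.3 CPM at 0 h, 123 and 128 at 8 h, 94.5 and 105 at 16 h, 66.5 and 72.3 at 24 h, 44.7 and 49.6 at 48 h and 62.1 and 60.7 at 72 h (log2 change 0.86, SE 0.12, adjusted p = 6.13e-06 at 8 h). With Wnt3a the level of UBTF was 103 and 133 CPM at 0 h, 157 and 169.5 at 8 h and 67.2 and 62.8 at 24 h. At later times it was at 100.1 and 109.6 at 48 h, 92.2 at 72 h, 52.4 and 67.6 at 96 h and 117 and 98 at 120 h, with 8 h libraries above both 0 h libraries (0.45, adjusted p = 0.0383). UBTF is the one gene of the 33 that was called higher at 8 h in all 3 arms. It fell at CHIR 48 h (-0.56, adjusted p = 7.25e-04) and rose from 48 to 72 h (0.38, adjusted p = 0.0410). UBTF overlaps 2 annotated noncoding genes on the other strand. UBTF lost its calls at Wnt3a 8 h (Wnt3a 0 h r1 0.449, Wnt3a 8 h r1 0.105, Wnt3a 8 h r2 0.252, and under 4 of 9 other settings) and at CHIR 72 h over 48 h (any 1 of its 4 libraries, 0.0690 to 0.236, and under 1 of 9 other settings).

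POLR1B, the second largest polymerase subunit, was at 78.4 and 65.3 CPM at CHIR 0 h, 83.2 and 93.5 at 8 h, 94.3 and 81.9 at 16 h, 59.1 and 63.1 at 24 h, 40.3 and 41.3 at 48 h and 48.4 and 46.2 at 72 h. Under Wnt3a POLR1B was at 81.2 and 86.3 CPM at 0 h, 79.98 and 87.9 at 8 h and 64.1 and 53.7 at 24 h. From 48 h on it was at 53.9 and 49.6 at 48 h, 43.6 at 72 h, 36 and 35 at 96 h and 48.1 and 66.5 at 120 h (log2 change -1.25, SE 0.15, adjusted p = 1.06e-07 at 96 h). In the bcat arm POLR1B was at 31.8 and 32.2 CPM at 0 h, 66.5 and 70.3 at 8 h and 47.7 and 51.7 at 16 h. From 24 h on it was at 47.8 and 39.5 at 24 h, 41.6 and 29.5 at 48 h and 45.8 and 38.3 at 72 h, and its 8 h libraries were apart from all others of the arm (log2 change 1.09, SE 0.16, adjusted p = 1.01e-05). POLR1A was at 72.3 and 67.3 CPM at CHIR 0 h, 87.7 and 98.4 at 8 h, 85.5 and 109 at 16 h, 57.5 and 61 at 24 h, 45.4 and 54.3 at 48 h and 59.1 and 54.2 at 72 h. The Wnt3a libraries of POLR1A stood at 81.5 and 91.5 CPM at 0 h, 82.9 and 92.1 at 8 h and 44.3 and 47.8 at 24 h. The later libraries stood at 73 and 71.3 at 48 h, 73.2 at 72 h, 52.4 and 50.4 at 96 h and 83.1 and 68.7 at 120 h. The level of POLR1A in the bcat arm was 35.3 and 44.3 CPM at 0 h, 71 and 77.8 at 8 h and 60.3 and 48.2 at 16 h. After 16 h it stood at 50.6 and 55.7 at 24 h, 54.8 and 47 at 48 h and 46.7 and 48.5 at 72 h. The 2 subunits of the same enzyme had different late courses in the Wnt3a arm, where POLR1B was called lower at 48, 72 and 120 h (-0.70, -0.95 and -0.55) and POLR1A was not (-0.27, -0.25 and -0.20, adjusted p = 0.20, 0.360 and 0.30), and the difference between the 2 genes was not tested. POLR1B lost its call at Wnt3a 120 h (Wnt3a 0 h r2 0.0854, Wnt3a 120 h r1 0.152).

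**Figure D4:**
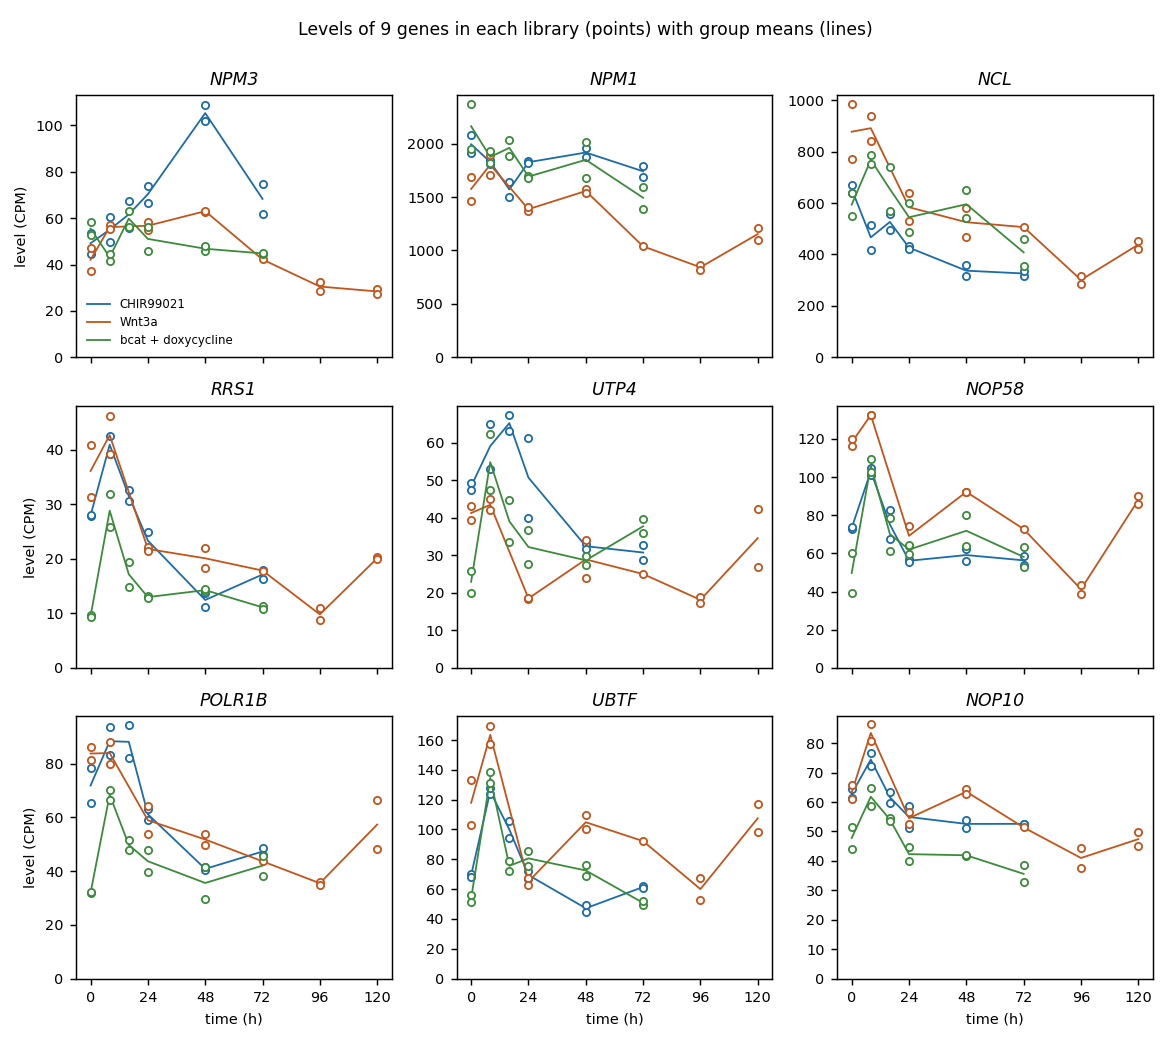
Level (CPM) of 9 of the genes against time in hours in the CHIR99021 (blue), Wnt3a (orange) and bcat (green) arms, with points for libraries and lines through group means. NPM3 stands at 109 and 102 CPM at CHIR 48 h, and RRS1, UBTF and POLR1B stand highest at 8 h in the bcat arm. Every panel but NPM3 has its lowest Wnt3a mean at 96 h (in NPM3 it is at 120 h, and in UTP4 the 24 and 96 h groups are about level).

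To compare arms, the change in 1 arm was taken less that in another at the same time. At 8 h 3 genes changed more upward and 0 less under CHIR99021 than under Wnt3a (all genes: 1.37% and 3.3%). There were 0 more and 5 less under CHIR99021 than in the bcat arm (0.617% and 2.08%) and 1 more and 17 less under Wnt3a than in the bcat arm (2.62% and 2.97%). At 24 h the counts were 11 and 0 for CHIR less Wnt3a (4.39% and 5.56%), 0 and 1 for CHIR less bcat (1.65% and 3.3%) and 0 and 20 for Wnt3a less bcat (5.95% and 9.06%). At 48 h they were 3 and 1 (6.76% and 9.34%), 1 and 16 (5.97% and 10.6%) and 1 and 17 (5.28% and 6.84%) in the same order. At 72 h they were 2 and 0 (3.73% and 5.26%), 1 and 7 (3.21% and 4%) and 0 and 14 (6.09% and 5.78%). The median difference over the 33 genes for Wnt3a less bcat was -0.69, -0.73, -0.60 and -0.51 at 8, 24, 48 and 72 h, with 7, 5, 5 and 6 of the genes above 0, and for CHIR less bcat at 48 h it was -0.46. The Wnt3a 72 h group is 1 library, whose spread is taken from the other groups. Since bcat began lower, its change and its level do not rank alike: RRS1 at 48 h was at 14 and 14.5 CPM in the bcat arm and 13.8 and 11.1 in the CHIR arm, while the difference of the changes was -1.75 (SE 0.25, adjusted p = 5.43e-06). NPM3 was the gene with the largest difference in favour of CHIR99021 over bcat at 48 h (1.35, SE 0.20, adjusted p = 7.83e-06). In none of the 12 comparisons between arms was FBL, NHP2, NOP10, NPM1, PES1, WDR12 or WDR43 called. No call given here with its value was lost with 1 library left out or under another setting.

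Many of these counts between arms are small or rest on single libraries. The 17 genes lower under Wnt3a than in the bcat arm at 8 h became 10 without Wnt3a 0 h r2, and the 17 at 48 h became 6 without that library, 9 without Wnt3a 48 h r1, 10 without bcat 0 h r1 and 8 without bcat 48 h r1. The 14 at 72 h became 9 without Wnt3a 0 h r2 and 8 without bcat 72 h r1. The 11 genes higher under CHIR99021 than under Wnt3a at 24 h became 2 without Wnt3a 0 h r2, 7 without Wnt3a 24 h r2 or without CHIR 0 h r1, 5 without CHIR 0 h r2, 6 without CHIR 24 h r1 and 4 without CHIR 24 h r2. The 5 genes lower under CHIR99021 than in the bcat arm at 8 h became 0 without CHIR 8 h r1 or without bcat 8 h r1, 1 without CHIR 0 h r1 or without bcat 0 h r1, and 2 without CHIR 0 h r2, without CHIR 8 h r2 or without bcat 8 h r2. At the start NIP7, NOP2 and UTP15 stood at -0.75, -0.57 and -0.45 at CHIR 0 h against Wnt3a 0 h (log2). The count of these 3 genes, higher under CHIR99021 than under Wnt3a at 8 h, ranged from 1 to 6. It was 6 without Wnt3a 0 h r1 and 1 without any 1 of the other 7 libraries. By contrast the 16 genes lower under CHIR99021 than in the bcat arm at 48 h stayed between 13 and 16, and the 20 lower under Wnt3a than in the bcat arm at 24 h between 14 and 21.

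A longer list of the pathway was counted beside the 33 genes. Of 111 other genes of ribosome assembly, RNA polymerase I and the RNA exosome, 44 rose and 3 fell at bcat 8 h (all genes: 10.7% and 8.01%). At CHIR 8 h 26 rose and 5 fell (9.2% and 11.7%), and at Wnt3a 8 h 0 rose and 0 fell (2.28% and 1.18%), with medians of 0.32, 0.13 and 0.09. At Wnt3a 96 h 1 rose and 95 fell (all genes: 18.8% and 21%, median of the list -0.89). From 96 to 120 h 68 rose and 2 fell (11.8% and 11%, median 0.47), and at CHIR 72 h 2 rose and 39 fell (11.5% and 13.4%, median -0.29). In the uninduced bcat line 0 were higher and 50 lower than at CHIR 0 h (all genes: 6.07% and 9.59%). With 1 library left out 30 to 35 rose at bcat 8 h and 70 to 94 fell at Wnt3a 96 h, while at CHIR 8 h 14 rose without CHIR 0 h r1 or CHIR 8 h r2. In such fits 48 to 71 rose from 96 to 120 h of Wnt3a, and 38 to 45 were lower at bcat 0 h than at CHIR 0 h. The 39 falls at CHIR 72 h became 24 without CHIR 0 h r2. At CHIR 24 h the largest called changes in the 4 groups of this list were those of IMP3, a U3 snoRNP protein (-1.0, SE 0.14, adjusted p = 3.45e-06), GNL3L, a relative of nucleostemin (-0.55, SE 0.14, adjusted p = 0.00757), POLR1D, a subunit shared by RNA polymerases I and III (0.43, SE 0.11, adjusted p = 0.00636) and EXOSC5, a subunit of the RNA exosome (-0.79, SE 0.17, adjusted p = 0.00111). At CHIR 72 h they were EMG1, a methyltransferase of the small subunit RNA (-1.01, SE 0.15, adjusted p = 6.07e-06), SURF6 (-0.93, SE 0.20, adjusted p = 8.41e-04), POLR1G, listed as CD3EAP, a polymerase I subunit (-0.94, SE 0.18, adjusted p = 1.18e-04) and again EXOSC5 (-1.14, SE 0.17, adjusted p = 3.36e-06). At Wnt3a 120 h they were WDR3 (-0.75, SE 0.13, adjusted p = 6.97e-05), the helicase DDX54 (-0.84, SE 0.18, adjusted p = 8.80e-04), POLR1G (-0.74, SE 0.18, adjusted p = 0.00256) and EXOSC4 (-0.72, SE 0.21, adjusted p = 0.00991). At bcat 72 h the directions were mixed: AATF fell (-1.16, SE 0.15, adjusted p = 3.59e-07) and the exosome helicase MTREX, listed as SKIV2L2, fell (-0.59, SE 0.12, adjusted p = 5.10e-04), while DDX51 (0.96, SE 0.27, adjusted p = 0.00784) and the polymerase I factor TAF1B (0.61, SE 0.17, adjusted p = 0.00615) rose. GNL3L lost its call at CHIR 24 h (CHIR 0 h r1 0.0522, CHIR 24 h r1 0.0710, CHIR 24 h r2 0.0501). POLR1D lost its call at CHIR 24 h (CHIR 0 h r2 0.0654, CHIR 24 h r2 0.145, and under 1 of 9 other settings). DDX54 lost its call at Wnt3a 120 h (Wnt3a 0 h r2 0.0767). CD3EAP lost its call at Wnt3a 120 h (Wnt3a 0 h r2 0.281, Wnt3a 120 h r2 0.0722). EXOSC4 lost its call at Wnt3a 120 h (Wnt3a 0 h r2 0.322, Wnt3a 120 h r2 0.204). DDX51 lost its call at bcat 72 h (bcat 72 h r1 0.102). TAF1B lost its call at bcat 72 h (bcat 0 h r2 0.342, bcat 72 h r1 0.0845).

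The MYC genes, whose proteins are known to bind E-boxes in promoters of this pathway, moved in both directions, depending on the gene, the arm and the time. MYC was at 48.7 and 54.3 CPM at CHIR 0 h, 26.3 and 28.4 at 8 h and 2.70 and 3.88 at 72 h (lower and higher library), and fell at every time of the CHIR arm, by -0.91 at 8 h (adjusted p = 0.00221) when 13 of the 33 genes rose. MYCN was at 85.8 and 87.6 CPM at CHIR 0 h and 38.9 and 43.2 at 8 h (-1.08, adjusted p = 1.02e-07). MYCN in the bcat arm was at 27.1 and 27.8 CPM at 0 h, 39.8 and 42 at 8 h and 77.6 and 78.8 at 72 h. It was called higher at 8 h (0.58, adjusted p = 0.00256), 24 h (0.69), 48 h (1.11) and 72 h (1.51). Of the 33 genes 23, 2, 10 and 2 were called higher at these times. MYCL was at 15 and 20.4 CPM at bcat 0 h and 107 and 119 at 48 h (2.62, adjusted p = 1.77e-13), and MYC fell at bcat 24, 48 and 72 h (-1.86 at 72 h). In the uninduced bcat line, where 24 of the 33 genes were lower than at CHIR 0 h, all 3 MYC genes were also lower than at CHIR 0 h (MYC -1.22, MYCN -1.66 and MYCL -1.03, adjusted p = 4.32e-04, 3.88e-10 and 3.25e-05). The CHIR 0 h cultures themselves stood at 0.67 in MYC, 0.28 in MYCN and 1.3 in MYCL against Wnt3a 0 h (log2). These gaps therefore do not carry over in size to Wnt3a 0 h, against which 26 of the 33 genes were lower. At Wnt3a 8 h MYC (0.86, adjusted p = 0.0217) and MYCL (1.21, adjusted p = 4.58e-06) rose, MYCN fell (-0.43, adjusted p = 0.0465) and 2 of the 33 genes rose. At Wnt3a 24 h, when 23 of the 33 genes fell, the changes of MYC, MYCN and MYCL were 0.57, -0.54 and 0.93. At Wnt3a 96 h MYC (-0.67) and MYCN (-0.94) were lower than at 0 h and MYCL higher (0.57). Under CHIR99021 the change of MYCL was -0.56, 0.10, 0.13, -1.47 and 0.43 at 8, 16, 24, 48 and 72 h. For the Wnt3a 24 h values and those of MYCL under CHIR99021, fits with 1 library left out are not given. The part of these factors in the changes was not tested. MYC lost its calls at Wnt3a 8 h (Wnt3a 0 h r1 0.232, Wnt3a 8 h r1 0.187, Wnt3a 8 h r2 0.0661, and under 2 of 9 other settings) and at Wnt3a 96 h (Wnt3a 0 h r2 0.510, Wnt3a 96 h r2 0.177, and under 1 of 9 other settings). MYCN lost its call at Wnt3a 8 h (Wnt3a 0 h r2 0.320, Wnt3a 8 h r1 0.414, Wnt3a 8 h r2 0.110, and under 3 of 9 other settings).

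Genes of cell division moved in both directions at 8 h in the CHIR and bcat arms. At Wnt3a 8 h no call was made for any of the 5 genes listed (adjusted p = 0.417 to 0.959). PCNA and MCM2, which act at the replication fork, rose at 8 h of CHIR99021 (0.59 and 0.64) and of doxycycline (1.38 and 0.96). The other 3 genes of the list, TOP2A, MKI67 and CCNB1, which mark dividing cells, fell at CHIR 8 h (-1.17, -0.92 and -0.35). At bcat 8 h TOP2A fell (-0.85), and MKI67 (-0.40, adjusted p = 0.0954) and CCNB1 (-0.18, adjusted p = 0.359) were not called. The 5 genes summed to 1309 to 1348 CPM at CHIR 0 h and 1052 to 1074 at 8 h, and to 1155 to 1263 at bcat 0 h and 1079 to 1182 at 8 h. At Wnt3a 96 h 4 of the 5 genes of this list fell, PCNA by -1.69 (adjusted p = 3.73e-09), MCM2 by -1.40, CCNB1 by -0.96 and TOP2A by -0.54 on the log2 scale, and MKI67 was not called (0.16, adjusted p = 0.467). The summed level of the 5 genes was 1021 to 1257 CPM at Wnt3a 0 h, 638 to 649 at 96 h and 859 to 905 at 120 h. In the bcat arm PCNA and MCM2 were still higher at 72 h (0.99 and 1.06), when 2 of the 33 genes were higher and 7 lower than at 0 h. The share of dividing cells was not measured, and its part in these changes was not tested. As a check of the labels, the WNT response genes AXIN2, SP5, LEF1, DKK4 and NKD1 summed to 23.8 to 28.3 CPM at CHIR 0 h and 485 to 532 at 8 h, to 33.1 to 34.7 at bcat 0 h and 277 to 344 at 8 h, and to 24.3 to 30.5 at Wnt3a 0 h. Under Wnt3a they summed to 166 to 175 CPM at 8 h, 33.4 to 40.2 at 24 h, 371 to 415 at 48 h, 112 at 72 h (1 library), 71 to 97.3 at 96 h and 149.8 to 215 at 120 h, and so stood near the 0 h level at 24 h. The 6 mesoderm and streak markers T, MIXL1, TBX6, MSGN1, MESP1 and EOMES reached 609 to 669.5 CPM at CHIR 72 h and 634 to 686 at Wnt3a 48 h, from 1.76 to 2.43 and 1.94 to 2.05 at 0 h, with MSGN1 at 0 in both libraries of CHIR 0 h and Wnt3a 0 h. The 6 pluripotency markers summed to 2079 to 2127 CPM at CHIR 72 h. PCNA lost its call at CHIR 8 h (CHIR 0 h r1 0.0979, CHIR 8 h r1 0.0871). CCNB1 lost its call at CHIR 8 h (any 1 of its 4 libraries, 0.0699 to 0.233, and under 2 of 9 other settings). TOP2A lost its call at Wnt3a 96 h (Wnt3a 0 h r2 0.0590).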

How the data were processed

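Total RNA libraries of 38 H9 cultures were made with a TruSeq Stranded Total RNA kit, per the labels' protocols, and kallisto 0.43.0 is named in the submitters' processing notes. For genome build and use of strand, nothing was found in the labels. The deposited values are read here as estimated counts times 1 constant per library. No label states that step: the constants (0.265 to 6.58) were inferred from the low values, of which, up to 20 counts, 56.9% to 81.3% then lie within 0.1 of whole numbers. Dividing by the constant and rounding gave the counts used, and the values as deposited were an alternative. edgeR 4.0.16 (R 4.3.3, limma 3.58.1) fitted 19 group means to the 24304 genes that passed filterByExpr on low counts, with TMM scaling, a quasi-likelihood test with 18 residual degrees of freedom and Benjamini-Hochberg adjustment in each of 38 comparisons. The alternatives were DESeq2 1.42.0, other scalings and filters, fits by arm, a replicate block and each library left out. Tests were tried on simulated data. Every library is printed for the genes with the largest called rise and fall of each role, the 2 that moved least and 3 paralogue pairs. Genes and lists were chosen with earlier results of these data known. Overlapping genes, hosted snoRNAs and transcript lengths are from the GENCODE annotation on GRCh38, matched by symbol, and promoter windows from RefSeq.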

Additional observations from a re-analysis of the deposited data

Results flagged for a closer look

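In each of the 12 comparisons between arms the change from 0 h of some of the 33 genes differed by the test of the difference itself, and the gene with the largest called difference is given (edgeR's quasi-likelihood test with Benjamini-Hochberg adjustment). NIP7 rose more under CHIR99021 than under Wnt3a at 8 h (difference of log2 changes 0.88, SE 0.20, adjusted p = 0.00804) and differed the same way at 72 h (0.90, adjusted p = 0.00829). RRS1 lay below the bcat change under CHIR99021 at 8 h (-1.07, adjusted p = 0.0110) and 48 h (-1.75, adjusted p = 5.43e-06) and under Wnt3a at 8 h (-1.42, adjusted p = 4.77e-04). UTP4 changed more upward under CHIR99021 than under Wnt3a at 24 h (1.22, adjusted p = 0.00674). It lay below the bcat change under Wnt3a at 24 h (-1.68, adjusted p = 3.99e-04) and 72 h (-1.49, adjusted p = 0.00394) and under CHIR99021 at 72 h (-1.42, adjusted p = 0.00356). The Wnt3a 72 h group, behind the NIP7 value at 72 h and the UTP4 value for Wnt3a against bcat at 72 h, is 1 library, which is assumed to vary like the other groups. NOB1 lay above the Wnt3a change under CHIR99021 at 48 h (1.05, adjusted p = 0.00114), GAR1 lay below the bcat change under Wnt3a at 48 h (-1.47, adjusted p = 0.00162), and NOLC1 below it under CHIR99021 at 24 h (-0.61, adjusted p = 0.0233). RRS1 lost its call at CHIR minus bcat at 8 h (CHIR 8 h r1 0.060, bcat 0 h r2 0.0744, bcat 8 h r1 0.0798). UTP4 lost its calls at CHIR minus Wnt3a at 24 h (CHIR 24 h r1 0.0665, Wnt3a 0 h r2 0.0535) and at CHIR minus bcat at 72 h (bcat 0 h r2 0.0544). NOLC1 lost its call at CHIR minus bcat at 24 h (CHIR 0 h r1, CHIR 0 h r2, CHIR 24 h r1, CHIR 24 h r2, bcat 0 h r1, bcat 24 h r1, 0.0565 to 0.109, and under 1 of 9 other settings). Without the 4 libraries in doubt the NOLC1 difference was -0.50 (adjusted p = 0.179). The uninduced bcat cultures from which these changes are taken were lower than the other untreated cultures in RRS1, at 9.70 and 9.31 CPM. Other flagged genes also began at different levels. Against CHIR 0 h, bcat 0 h stood at -1.11 in UTP4 and -0.81 in NOLC1, and against Wnt3a 0 h at -0.90 in UTP4 and -0.93 in GAR1 (log2). Against Wnt3a 0 h, CHIR 0 h stood at -0.75 in NIP7, and at 0.21 in UTP4 and 0.47 in NOB1. These differences of changes thus include differences at the start.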

How the results depend on the processing

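The number of the 33 genes called was recomputed in 38 comparisons, with 1 choice changed at a time, and a count is given where it moved by over 1.5 times, with the main count in parentheses; the cause was not tested. With DESeq2's size factors, the counts were 1 at Wnt3a 8 h rose (2), 4 at CHIR 72 h over 48 h fell (2), 3 at bcat 48 h over 24 h rose (1), 6 at CHIR less Wnt3a at 8 h higher (3), 3 at CHIR less bcat at 8 h lower (5), 4 at CHIR less Wnt3a at 72 h higher (2), 12 at CHIR 0 h over Wnt3a 0 h lower (6). By DESeq2's Wald test, the counts were 4 at CHIR 72 h over 48 h fell (2), 4 at bcat 48 h over 24 h rose (1), 9 at CHIR less Wnt3a at 8 h higher (3), 2 at CHIR less bcat at 24 h lower (1), 7 at CHIR less Wnt3a at 72 h higher (2), 12 at CHIR less bcat at 72 h lower (7), 12 at CHIR 0 h over Wnt3a 0 h lower (6). With no filter on low counts, the counts were 0 at Wnt3a 8 h rose (2), 6 at bcat 24 h rose (2), 1 at CHIR less Wnt3a at 8 h higher (3), 6 at CHIR less bcat at 24 h lower (1), 1 at CHIR less Wnt3a at 48 h higher (3), 1 at CHIR less Wnt3a at 72 h higher (2). On the values as deposited, the counts were 4 at bcat 24 h rose (2), 2 at bcat 48 h over 24 h rose (1), 2 at CHIR less bcat at 24 h lower (1). With scaling that leaves out ribosomal RNA, the counts were 2 at bcat 48 h over 24 h rose (1), 5 at CHIR less Wnt3a at 8 h higher (3). With scaling over protein-coding genes, the counts were 0 at Wnt3a 8 h rose (2), 2 at bcat 48 h over 24 h rose (1), 6 at CHIR less Wnt3a at 8 h higher (3), 3 at CHIR less bcat at 8 h lower (5), 4 at CHIR less Wnt3a at 72 h higher (2), 12 at CHIR 0 h over Wnt3a 0 h lower (6). Without the 4 libraries in doubt, the counts were 0 at Wnt3a 8 h rose (2), 7 at bcat 16 h rose (11), 1 at bcat 24 h rose (2), 5 at bcat 48 h rose (10), 4 at CHIR 72 h over 48 h fell (2), 6 at CHIR less Wnt3a at 8 h higher (3), 1 at CHIR less bcat at 8 h lower (5), 0 at CHIR less bcat at 24 h lower (1), 4 at CHIR less Wnt3a at 72 h higher (2), 10 at CHIR 0 h over Wnt3a 0 h lower (6). In fits of the compared arms alone, the counts were 7 at CHIR 16 h rose (4), 7 at CHIR 24 h fell (4), 0 at Wnt3a 8 h rose (2), 1 at bcat 24 h rose (2), 13 at CHIR 48 h over 24 h fell (8), 5 at CHIR 72 h over 48 h fell (2), 2 at bcat 48 h over 24 h rose (1), 2 at bcat 72 h over 48 h fell (5), 6 at CHIR less Wnt3a at 8 h higher (3), 8 at CHIR less bcat at 8 h lower (5), 2 at CHIR less bcat at 24 h lower (1), 11 at CHIR less bcat at 72 h lower (7). With a replicate block, which the numbers do not support since same-numbered libraries deviated together with correlations of only -0.0827 to 0.111, the count was 1 at CHIR less Wnt3a at 72 h higher (2), and no other count moved. Leaving out 1 library at a time gave these ranges: 7 to 10 at CHIR 8 h rose (13), 1 to 5 at CHIR 16 h rose (4), 2 to 3 at CHIR 24 h fell (4), 9 to 13 at CHIR 72 h fell (16), 0 to 2 at Wnt3a 8 h rose (2), 10 to 25 at Wnt3a 24 h fell (23), 4 to 15 at Wnt3a 48 h fell (14), 9 to 23 at Wnt3a 120 h fell (22), 6 to 10 at bcat 16 h rose (11), 1 to 3 at bcat 24 h rose (2), 2 to 8 at bcat 48 h rose (10), 2 to 7 at bcat 72 h fell (7), 5 to 7 at CHIR 48 h over 24 h fell (8), 0 to 2 at bcat 48 h over 24 h rose (1), 0 to 5 at bcat 72 h over 48 h fell (5), 5 to 8 at Wnt3a 48 h over 24 h rose (12), 1 to 6 at CHIR less Wnt3a at 8 h higher (3), 0 to 4 at CHIR less bcat at 8 h lower (5), 10 to 20 at Wnt3a less bcat at 8 h lower (17), 2 to 14 at CHIR less Wnt3a at 24 h higher (11), 0 to 3 at CHIR less bcat at 24 h lower (1), 1 to 3 at CHIR less Wnt3a at 48 h higher (3), 6 to 18 at Wnt3a less bcat at 48 h lower (17), 1 to 4 at CHIR less Wnt3a at 72 h higher (2), 8 to 18 at Wnt3a less bcat at 72 h lower (14), 4 to 10 at CHIR 0 h over Wnt3a 0 h lower (6). Scaling moved the median of all genes by -0.069 to 0.118 with DESeq2's size factors, -0.084 to 0.149 by DESeq2's Wald test and -0.046 to 0.106 over protein-coding genes. Over all genes, the share of calls that were higher also moved by over 10 points in some comparisons. With DESeq2's size factors it moved by -13.9 points to 43.2% at bcat 16 h, and by 22.3 points to 55.7% at CHIR less bcat at 24 h. The shares of all genes given beside the counts are those of the main fit. In simulated data 100 genes were changed 1.5-fold and 100 were changed 2-fold per comparison, over 22338 genes, with the rest unchanged. Of the 1.5-fold genes 47 were recovered at CHIR 8 h, 36 at Wnt3a 96 h and 30 at bcat 8 h. Of the 2-fold genes 89, 84 and 87 were recovered there. In the data many more genes changed, 18.8% rising and 21% falling at Wnt3a 96 h, which makes the adjusted cut-off less strict. These shares therefore do not show how many changes of the 33 genes would be missed. Small changes may still be missed with 2 libraries a group.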
